A study of Rattus norvegicus with 14 samples.

Results

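The Hox genes of the rat colon were followed across inflamed, uninflamed and control tissue in a model of colitis. They are all rows of the count table whose name is Hox, a cluster letter from a to d and a number, which gave 32 of the 26319 genes: 6 of cluster A, 10 of cluster B, 8 of cluster C and 8 of cluster D. All 32 matched 1 of the 39 Hox genes in the RefSeq annotation of the rat (GRCr8), and the others of that annotation were not analysed here. Male Wistar rats received 2,4,6-trinitrobenzene sulfonic acid (TNBS), a hapten that injures the mucosa and sets off colitis, into the colon, and tissue was taken 72 h later. The inflamed group (I) holds 6 libraries from lesions of 6 TNBS-treated rats, animals 218 to 223. The uninflamed group (UI) holds 6 libraries from regions of the same 6 rats that did not adjoin a lesion. The control group (C) holds 2 libraries from vehicle-treated rats without colitis, animals 216 and 217, from random sections of the colon. All samples came from a removed length of distal colon, but where along it each piece was cut was not given in the sources used here, so position and treatment cannot be told apart.

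Hox genes encode homeodomain transcription factors that give cells their place along the body axis. They stand in clusters in an order that follows the axis: genes of low paralog number act towards the head and those of high number towards the tail, and members of different clusters with the same number are paralogs. In the gut of mouse and man, the genes of the highest numbers mark the hindgut, and Hoxb13 and Hoxd13 are known as genes of the distal colon and rectum.

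Whole tissue was sequenced after removal of ribosomal RNA, with 6734968 to 13792657 reads on genes per library. Levels are given as CPM (reads scaled to a common library size of 1e+06) after TMM scaling, a correction for libraries in which a few genes take many reads, and 3 reads were worth 0.182 to 0.478 CPM. The gene models' lengths were not at hand, so levels are compared between samples and not between genes. In bulk tissue, fewer cells of a type and less RNA per cell cannot be told apart. The intestinal factor Cdx2 had 367 or more reads in the control libraries, whereas Pdx1 of the duodenum and pancreas and Sox2 of the stomach had at most 12 reads in any library. The summed level of 10 epithelial markers was 148 to 3320 CPM in inflamed, 3110 to 6210 in uninflamed and 3150 to 6400 in control libraries, and that of 6 neutrophil markers was 348 to 2010, 11.2 to 25.9 and 12.5 to 17.1 CPM in the same order of groups.

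The Hox genes together had 10858 reads, of which 6805 fell on cluster B, 3432 on D, 473 on C and 148 on A. Hoxb13 held 5274 reads and Hoxd13 held 2292, while the remaining members held 4 to 466. After a filter on low counts, 14 of the 32 could be tested: 7 of cluster B, 4 of D, 2 of C and Hoxa3 alone of A. The 18 others had 4 to 102 reads over all libraries and at most 33 in any one, the last being Hoxc13 in the inflamed library of animal 221. Among these, Hoxd12, the neighbour of Hoxd13, had 0 to 12 reads in inflamed, 0 to 3 in uninflamed and 10 in each control library. Members that passed a filter did so partly through the group where they were high, and reads that match several places equally (up to 10 were allowed) make counts of genes with like homeobox sequence uncertain.

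**Figure D1:**
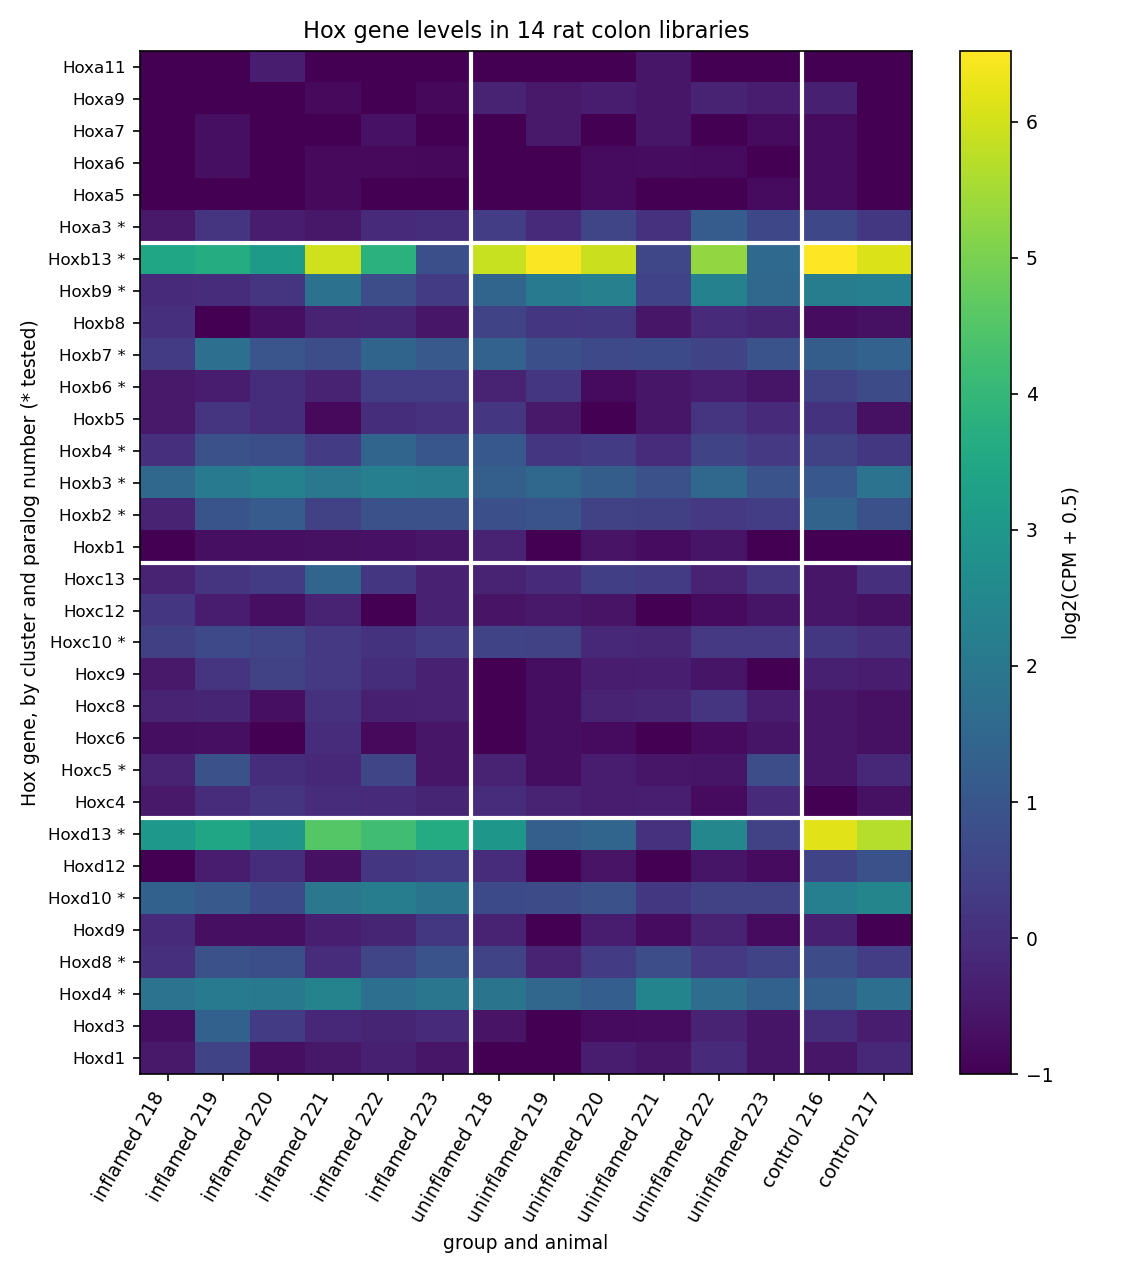
Levels of the 32 Hox genes (rows, by cluster and falling paralog number, the 14 tested ones starred) in the 14 libraries (columns, by group and animal), as log2(CPM + 0.5). Hoxb13 and Hoxd13 carry the strongest colour in control tissue, Hoxd13 is dimmer in all 6 uninflamed libraries than in both controls, and Hoxb13 is bright in the inflamed and dim in the uninflamed library of animal 221.

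A Hox gene was called when its Benjamini-Hochberg adjusted p in the quasi-likelihood test of edgeR, adjusted over all 18678 genes tested, was under 0.05 and the change at least 2-fold. In inflamed against uninflamed tissue (I-UI), 4 of the 14 were called, against 12.6% of all genes tested. Hoxd13 and Hoxd10 rose and Hoxb9 and Hoxa3 fell, beside 5.88% of all genes called higher and 6.73% called lower. In inflamed against control tissue (I-C), Hoxd13 and Hoxb9 fell, 2 of 14 against 13.6% of all genes (5.84% higher and 7.72% lower). In uninflamed against control tissue (UI-C), Hoxd13 and Hoxd10 fell, 2 of 14, whereas 0.145% of all genes were called. The comparisons with controls share the same 2 libraries, and UI-C and I-UI share the uninflamed ones, so their results are not independent. The median log2 fold change of the 14 was 0.33 in I-UI, -0.35 in I-C and -0.35 in UI-C, beside 0.04, 0.09 and 0.05 over all genes tested. Leaving out 1 animal at a time moved the count of Hox genes called to 2 in I-UI without animal 220 or 222, to 0 in I-C without control 216 or 217 and 1 without 218, 219, 220, 222 or 223, and to 0 in UI-C without 219, 220, 222 or 223 and 1 without 216, 217 or 221.

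**Figure D2:**
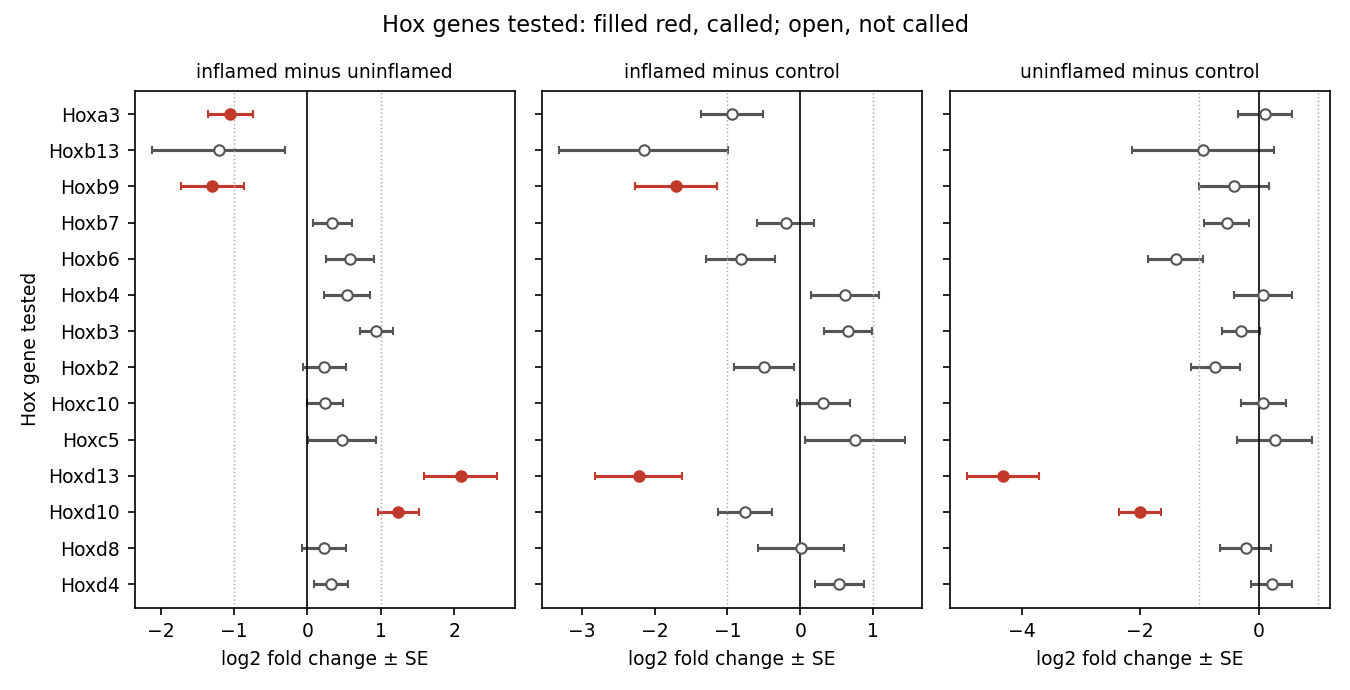
Log2 fold change ± SE (horizontal) of each tested Hox gene (vertical) in the 3 comparisons, filled red where called, with dotted lines at a 2-fold change. Hoxd13 stands at 2.09 in I-UI, -2.22 in I-C and -4.31 in UI-C, and Hoxb13 has the widest bars, with SEs of 0.91 to 1.2.

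Because Hoxd13 and Hoxd10 moved together, the 250 bases before their annotated starts are shown, read from RefSeq (GRCr8) on the plus strand. They were searched on both strands for TATAAA, the box bound by the basal transcription machinery, and for CCAAT, the box bound by the factor NF-Y. They were also searched for TTTATNG, a core of the kind that high-number Hox and Cdx proteins bind, and for TGATTNAT, a core of the kind that Pbx and Hox proteins bind together. Matches are in capitals.
Hoxd13, chr3:79977827-79978076: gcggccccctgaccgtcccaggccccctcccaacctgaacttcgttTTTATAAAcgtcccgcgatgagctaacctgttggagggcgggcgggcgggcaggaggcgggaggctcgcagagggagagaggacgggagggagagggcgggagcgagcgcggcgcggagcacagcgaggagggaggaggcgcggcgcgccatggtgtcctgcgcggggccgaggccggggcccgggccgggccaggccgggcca
Hoxd10, chr3:80001697-80001946: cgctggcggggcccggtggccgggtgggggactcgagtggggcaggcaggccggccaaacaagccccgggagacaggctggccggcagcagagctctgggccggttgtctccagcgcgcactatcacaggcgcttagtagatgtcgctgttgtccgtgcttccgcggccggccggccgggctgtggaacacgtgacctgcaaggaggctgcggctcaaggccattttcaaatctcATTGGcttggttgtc
The capitals in the window of Hoxd13 mark 2 matches to TATAAA that overlap, 1 on each strand, and 12.9% of 33461 windows of the same length before annotated starts hold that motif. Both lie in the single stretch TTTATAAA, in the part of the window far from the annotated start, and whether it acts as such a box was not tested. The capitals in the window of Hoxd10 mark 1 match to CCAAT on the minus strand, a motif held by 34% of windows. The letters of TTTATNG, held by 10.1% of windows, and TGATTNAT, held by 2.82%, were in neither. The windows are rich in G and C, with 74.8% for Hoxd13 and 67.2% for Hoxd10 beside a median of 51.2%, and CpG pairs stood at 0.90 and 0.76 of the number expected from the base content, beside a median of 0.38.

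Hoxd13, the last gene of cluster D, had the largest log2 fold change among the 14 tested members in each of the 3 comparisons. Its level was 7.06, 11.1 and 22.5 CPM (lowest, median, highest) in inflamed tissue, 0.562, 2.08 and 7.32 CPM in uninflamed tissue, and 71.4 and 50.9 CPM in controls. Both controls lay above all 12 libraries of TNBS-treated rats, and the inflamed and uninflamed groups overlapped only in that the inflamed library of animal 220 (7.06 CPM) was below the uninflamed one of animal 218 (7.32 CPM). Within animals, inflamed tissue was the higher in 6 of 6, by 0.03 (animal 218) to 4.44 (animal 221) on the log2(CPM + 0.5) scale. Hoxd13 averaged 12.9 ± 6.15 CPM in inflamed and 2.99 ± 2.65 CPM in uninflamed tissue (SD, n = 6 each), a log2 fold change of 2.09 ± 0.5 (SE, edgeR adjusted p = 0.00754). The inflamed mean was below the control mean of 61.1 ± 14.5 CPM (n = 2), with a log2 fold change of -2.22 ± 0.6 (edgeR adjusted p = 0.0214), and so was the uninflamed mean, with -4.31 ± 0.61 (edgeR adjusted p = 0.0158). The I-UI call of Hoxd13 held under all 23 alternative settings tried, with log2 fold changes of 1.63 to 2.61. The I-C call did not hold without control 216 (-1.96, adjusted p = 0.169) or control 217 (-2.45, adjusted p = 0.0801), and the UI-C call was lost without animal 219, 220, 222 or 223 (-4.54 to -4.12, adjusted p = 0.0733 to 0.107). With library totals in place of TMM the adjusted p was 0.0673 in I-C and 0.07 in UI-C, and with only the 2 groups in the fit it was 0.156 in UI-C.

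Hoxd10, which in mouse acts with its neighbours in the limb and spinal cord, had the same order of groups as Hoxd13. It had 1.11, 2.61 and 3.96 CPM in inflamed tissue, 0.655, 0.993 and 1.31 CPM in uninflamed tissue, and 4.23 and 4.85 CPM in controls, which rests on 9 to 56, 7 to 16 and 37 to 44 reads. The controls were above all other libraries, and inflamed tissue was above uninflamed in 5 of 6 animals, animal 220 being the exception. The log2 fold change was 1.24 ± 0.28 in I-UI (edgeR adjusted p = 0.00464), which held under all 23 alternatives. It was -2 ± 0.36 in UI-C (edgeR adjusted p = 0.0366) and -0.76 ± 0.37 in I-C (edgeR adjusted p = 0.185). The UI-C call of Hoxd10 was lost without any 1 of animals 216, 217, 219, 220, 221, 222 and 223 (-2.09 to -1.9, adjusted p = 0.0696 to 0.388), with library totals (-1.62, adjusted p = 0.264), with only the 2 groups in the fit (-1.99, adjusted p = 0.076) and with limma-voom (-2.17, adjusted p = 0.128).

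Further down cluster D, neither Hoxd8 nor Hoxd4 was called in any comparison of the main fit. Hoxd4, a gene of the hindbrain and neck region, had 2.83, 3.49 and 4.64 CPM in inflamed, 1.89, 2.5 and 4.77 CPM in uninflamed and 1.92 and 2.89 CPM in control tissue, with the groups overlapping. Its log2 fold change was 0.32 ± 0.23 in I-UI (edgeR adjusted p = 0.327). With library totals in place of TMM, Hoxd4 was called higher in I-C (1.16, edgeR adjusted p = 0.0467), where the median of all genes moved to 0.69. Hoxd3, which the filter left out of the main fit, had 1 to 17 reads in inflamed and 0 to 4 in uninflamed libraries. It was called higher in I-UI with no filter on low counts and without animal 218. Hoxd8 had 0.478 to 1.4 CPM in inflamed, 0.324 to 1.22 CPM in uninflamed and 0.787 and 1.15 CPM in control tissue. In cluster D the calls of the main fit were thus at Hoxd13 and Hoxd10 and not at Hoxd8 or Hoxd4. The difference between these members was not itself tested. In UI-C, edgeR called 0 of 10 epithelial, 0 of 7 smooth muscle and 0 of 8 fibroblast markers, with 0 in each list at an unadjusted p under 0.05. Only 0.145% of all genes tested were called in UI-C, so a count of 0 called in lists this short tells little. Of 4 macrophage markers 0 were called in UI-C and 4 had an unadjusted p under 0.05, with a summed level of 103 to 239 CPM in uninflamed and of 79.7 and 88.5 CPM in control tissue. Of 3 markers of interstitial cells of Cajal, the pacemaker cells of the gut wall, 0 were called in UI-C and 2 had an unadjusted p under 0.05, in opposite directions (Ano1 with a log2 fold change of -1.3 ± 0.35, edgeR adjusted p = 0.206, and Kit with 0.62 ± 0.29, adjusted p = 0.556). Their summed level was 122 to 189 CPM in uninflamed tissue, below the 311 and 198 CPM of the controls, as for Hoxd13. Ano1 made up most of the control sum, with a mean of 204 CPM, and Etv1 changed little in UI-C (0.09 ± 0.45, edgeR adjusted p = 0.979). Unlike Hoxd13, the sum was lower in inflamed than in uninflamed tissue, with medians of 116 and 148 CPM. Of 8 skeletal muscle and 5 adipocyte markers, 1 each had an unadjusted p under 0.05. In I-UI, 10 of 10 epithelial and 4 of 7 smooth muscle markers fell, beside 6.73% of all genes tested called lower. In the same comparison 5 of 8 fibroblast and 6 of 6 neutrophil markers rose, beside 5.88% called higher. The summed fibroblast markers were at 2860 to 12000 CPM in inflamed and 1840 to 5460 CPM in uninflamed tissue, and the smooth muscle markers at 776 to 3580 and 2980 to 9250 CPM. No marker of these lists was at 0 in all libraries of a group, and their part in the Hox results was not tested.

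Hoxb13, the last gene of cluster B and a paralog of Hoxd13, had the widest range of the tested members within both the inflamed and the uninflamed group. It had 1.27, 11.2 and 61.9 CPM in inflamed tissue, 1.03, 49.1 and 88.6 CPM in uninflamed tissue, and 91.3 and 69.1 CPM in controls. The inflamed libraries were all below the controls, but the inflamed and uninflamed groups overlapped over nearly their whole range. In 5 of 6 animals the inflamed region was the lower, by up to 2.82 (animal 219) on the log2(CPM + 0.5) scale. Animal 221 went the other way by 5.35, with 61.9 CPM in its inflamed and 1.03 CPM in its uninflamed region. In animal 223 both regions were low, at 1.27 CPM inflamed and 2.44 CPM uninflamed. Hoxb13 averaged 17.8 ± 22 CPM in inflamed and 41.7 ± 34.8 CPM in uninflamed tissue (SD, n = 6 each), and was not called in I-UI (log2 fold change -1.21 ± 0.91, edgeR adjusted p = 0.356), in I-C (-2.15 ± 1.16, adjusted p = 0.236) or in UI-C (-0.94 ± 1.2, adjusted p = 0.877). Without animal 221 it was called lower in I-UI (-2.47, edgeR adjusted p = 0.0347) and in I-C (-3.16, adjusted p = 0.027). Without the inflamed library of animal 221 only, an alternative chosen after seeing the data, it was called in neither (-2.19, adjusted p = 0.101, and -3.13, adjusted p = 0.0676). With edgeR's exactTest over all libraries it was called in I-C (-2.17, adjusted p = 0.0231).

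Hoxb9, which in mouse acts in the trunk and is the next member of cluster B in the table, showed a like pattern over the animals. It had 0.423, 0.674 and 3.07 CPM in inflamed tissue, 0.936, 3.12 and 4.45 CPM in uninflamed tissue, and 4.03 and 4.2 CPM in controls. Animal 221 again stood alone, with 3.07 CPM in its inflamed and 0.936 CPM in its uninflamed region, and the inflamed region was lower in the other 5 animals. The log2 fold change was -1.3 ± 0.43 in I-UI (edgeR adjusted p = 0.0399) and -1.71 ± 0.56 in I-C (edgeR adjusted p = 0.0499), where all inflamed libraries were below both controls, and -0.41 ± 0.59 in UI-C (edgeR adjusted p = 0.896). Both calls of Hoxb9 stood close to the threshold. With the animal as a block, the I-UI value was -1.44 with an adjusted p of 0.0819, and the I-UI call was also lost without any 1 of animals 216, 217, 218, 219, 220, 222 and 223 (-1.31 to -1.08, adjusted p = 0.0516 to 0.136). The I-C call was lost without any 1 of the same 7 animals (-1.74 to -1.57, adjusted p = 0.0777 to 0.201). With library totals Hoxb9 was at -1.11 in I-UI (adjusted p = 0.106) and -1.1 in I-C (adjusted p = 0.183), and its I-C call was also lost with no filter (adjusted p = 0.0603) and with only the 2 groups in the fit (adjusted p = 0.0758).

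**Figure D3:**
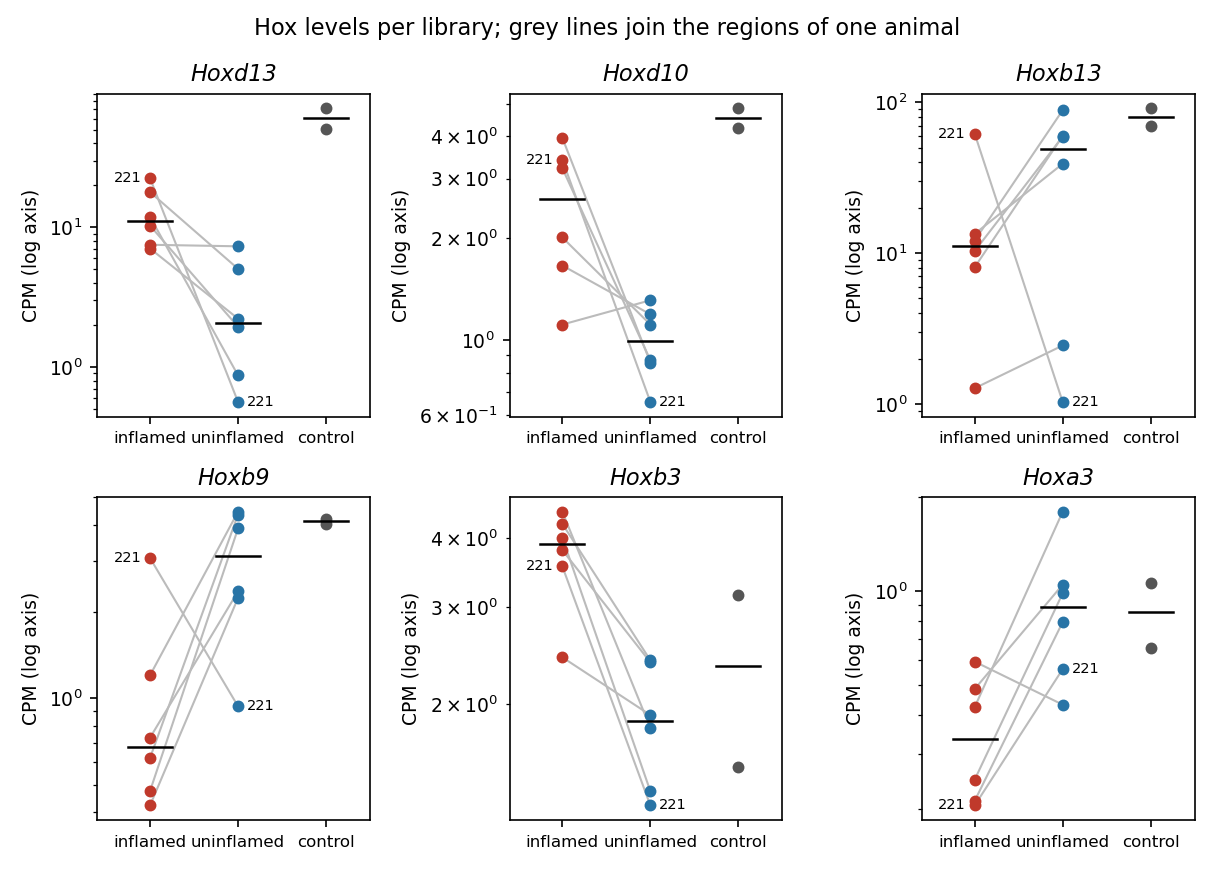
CPM (log axis) of 6 Hox genes in inflamed, uninflamed and control libraries (points), with group medians as black bars and grey lines joining the 2 regions of one animal. Hoxd13 and Hoxd10 are higher in inflamed than in uninflamed tissue and highest in controls, Hoxb13 and Hoxb9 are lower in inflamed tissue except in animal 221, and Hoxb3 does not overlap between inflamed and uninflamed tissue.

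The low-number members of cluster B are genes of the hindbrain and anterior trunk. For Hoxb3 the mean was 3.75 ± 0.719 CPM in inflamed and 1.87 ± 0.465 CPM in uninflamed tissue (SD, n = 6 each). Hoxb3 had 2.43, 3.9 and 4.46 CPM in inflamed tissue, 1.31, 1.86 and 2.4 CPM in uninflamed tissue, and 1.54 and 3.15 CPM in controls. It was the only tested member whose inflamed and uninflamed libraries did not overlap, which 9.52% of all genes tested did, and it was higher in inflamed tissue in 6 of 6 animals. Its log2 fold change in I-UI, 0.94 ± 0.22 (edgeR adjusted p = 0.00691), passed the adjusted p, as 5 of the 14 and 24.4% of all genes did, and was short of the 2-fold change. With DESeq2 the change was 1.00 and with limma-voom 1.01, so that Hoxb3 counted as called. Hoxb7 had 0.741 to 2.85 CPM in inflamed, 0.942 to 2.07 CPM in uninflamed and 1.83 and 2.1 CPM in control tissue. Hoxb4 had 0.529 to 2.26 CPM, 0.468 to 1.59 CPM, and 0.656 and 0.865 CPM in the same order of groups, and Hoxb2 had 0.317 to 1.73 CPM, 0.685 to 1.4 CPM, and 1.31 and 2.11 CPM. The I-UI log2 fold changes of Hoxb7, Hoxb4 and Hoxb2 were 0.34 ± 0.27, 0.54 ± 0.31 and 0.23 ± 0.29 (edgeR adjusted p = 0.39, 0.227 and 0.598). Hoxb6, which had 1 to 13 reads per library, was below both controls in every library of TNBS-treated rats without being called (UI-C log2 fold change -1.4 ± 0.46, edgeR adjusted p = 0.349).

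Clusters A and C were near the limit of detection. Hoxa3, a gene of the pharyngeal region, fell in I-UI with a log2 fold change of -1.05 ± 0.31 (edgeR adjusted p = 0.0227). It had 0.205, 0.336 and 0.594 CPM in inflamed tissue, 0.432, 0.891 and 1.8 CPM in uninflamed tissue, and 0.656 and 1.06 CPM in controls, which were 2 to 8, 4 to 21 and 5 to 11 reads. The groups overlapped, inflamed tissue was lower in 5 of 6 animals, and the call was lost without animal 220, 222 or 223 (-1.09 to -0.83, adjusted p = 0.0604 to 0.0913) and with library totals (-0.88, adjusted p = 0.0872). Hoxc10 and Hoxc5 had mean levels of 0.814 and 0.617 CPM in inflamed, 0.664 and 0.375 CPM in uninflamed and 0.598 and 0.293 CPM in control tissue, and were called in no comparison. The other 5 members of cluster A had 4 to 21 reads in all and were not tested. Among them Hoxa9, named after its values were seen, had 0 or 1 read in each inflamed, 2 to 4 in each uninflamed, and 3 and 0 in the control libraries, and was called in I-UI when no filter on low counts was used.

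In I-C, 6 of the 14 tested members did not overlap between the groups (Hoxd13, Hoxd10, Hoxb13, Hoxb9, Hoxb6 and Hoxa3, all with the controls higher), against 28.3% of all genes tested. In UI-C, 3 of 14 did not (Hoxd13, Hoxd10 and Hoxb6, again with the controls higher), against 11.4% of all genes tested.

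Taking each library by itself, the share of Hox reads on paralog groups 9 to 13 was 54.1%, 62% and 86.2% (lowest, median, highest) in inflamed tissue, 29%, 81.1% and 89.8% in uninflamed tissue, and 92.8% and 90.1% in controls. The 2 lowest shares, 29% and 41.6%, were the uninflamed libraries of animals 221 and 223. The summed level of groups 1 to 8 was 10.2 to 21.4 CPM in inflamed, 10.4 to 15 CPM in uninflamed and 13.5 and 14.4 CPM in control tissue, whereas that of groups 9 to 13 was 20.2 to 95.3 CPM, 5.06 to 97.5 CPM, and 174 and 132 CPM. The sum of groups 9 to 13 thus had the wider spread between libraries, and Hoxb13 and Hoxd13 made up much of it. These genes together held 35.2% to 76.3% of Hox reads in inflamed, 9.14% to 83.4% in uninflamed and 82.1% to 86.8% in control libraries. Not all high-number members varied so, Hoxc10 being at 0.565 to 1.07 CPM, 0.375 to 0.955 CPM and 0.525 to 0.672 CPM in the same order of groups. Without Hoxb13, the share of groups 9 to 13 was 41.7% to 68.6% in inflamed, 24.6% to 49.4% in uninflamed and 85.9% and 81.3% in control libraries.

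The reads of Hoxd13 as a share of Hoxd13 and Hoxb13 reads together set the paralogs of clusters D and B against each other within a library, in reads that are not corrected for gene length. It was 42.3%, 46%, 46.7%, 26.7%, 57.2% and 90.3% in the inflamed libraries of animals 218 to 223. It was 11%, 2.15%, 3.58%, 35.3%, 11.5% and 26.3% in their uninflamed libraries, and 43.9% and 42.4% in controls 216 and 217. Inflamed tissue had the higher share in 5 of 6 animals, and in animal 221 the shares were 26.7% inflamed (95% Wilson interval 24.3% to 29.2%, 1236 reads) and 35.3% uninflamed (17.3% to 58.7%, 17 reads), intervals that overlap. These intervals cover counting error only. In the uninflamed libraries of animals 218, 219, 220 and 222, Hoxb13 was at 39.1 to 88.6 CPM with Hoxd13 at 1.94 to 7.32 CPM, a balance seen in no control and no inflamed library.

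**Figure D4:**
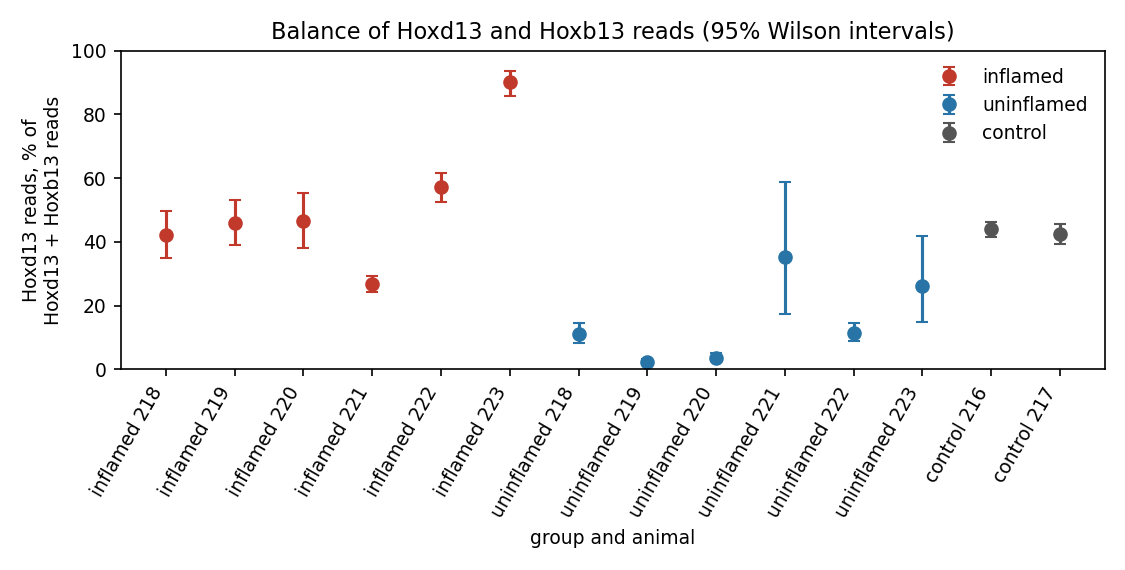
Hoxd13 reads as a percentage of Hoxd13 and Hoxb13 reads (vertical) in each library (horizontal, by group and animal), with 95% Wilson intervals. Controls lie at 43.9% and 42.4%, 4 uninflamed libraries lie at 2.15% to 11.5%, and the inflamed library of animal 223 lies at 90.3%.

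Genes known as higher in distal than in proximal colon of man or mouse were set beside the Hox genes, 3 of 6 listed being in the table. Those 3 were B3gnt7, a glycosyltransferase, Cldn8, a tight junction claudin, and Slc37a2, a sugar phosphate carrier. B3gnt7 had its highest inflamed value in animal 221, at 151 CPM against 2.79 to 33.2 CPM in the other 5, and its lowest uninflamed values in animals 221 and 223, at 4.4 and 4.97 CPM against 56.7 to 206 CPM in the other 4. The controls had 111 and 66.4 CPM. Hoxb13 had its highest inflamed and its lowest uninflamed values in the same libraries. B3gnt7 was not called in any comparison (I-UI log2 fold change -1.16 ± 0.98, edgeR adjusted p = 0.415). Cldn8 fell in I-UI (-2.32 ± 0.77, edgeR adjusted p = 0.0422), with 16.3 CPM in the inflamed library of animal 221 and 0.243 to 2.19 CPM in the other 5, against 11.6 to 28.4 CPM in uninflamed tissue. In the uninflamed libraries of animals 221 and 223 Cldn8 was at 14.8 and 11.6 CPM, against 17.1 to 28.4 CPM in the other 4, a far smaller gap than that of B3gnt7. Slc37a2 resembled Hoxd13 in that controls were highest, with 8.89 to 16.7 CPM in inflamed, 5.05 to 44.1 CPM in uninflamed and 121 and 140 CPM in control tissue. It fell in I-C (-3.17 ± 0.63, edgeR adjusted p = 0.00484), while UI-C gave -2.64 ± 0.63 (edgeR adjusted p = 0.15). Its uninflamed values in animals 221 and 223, 5.62 and 5.05 CPM, were close to the 5.91 CPM of animal 220, where Hoxb13 was at 59.8 CPM. In the inflamed library of animal 221 Slc37a2 was at 16.5 CPM, which was not its highest inflamed value.

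**Figure D5:**
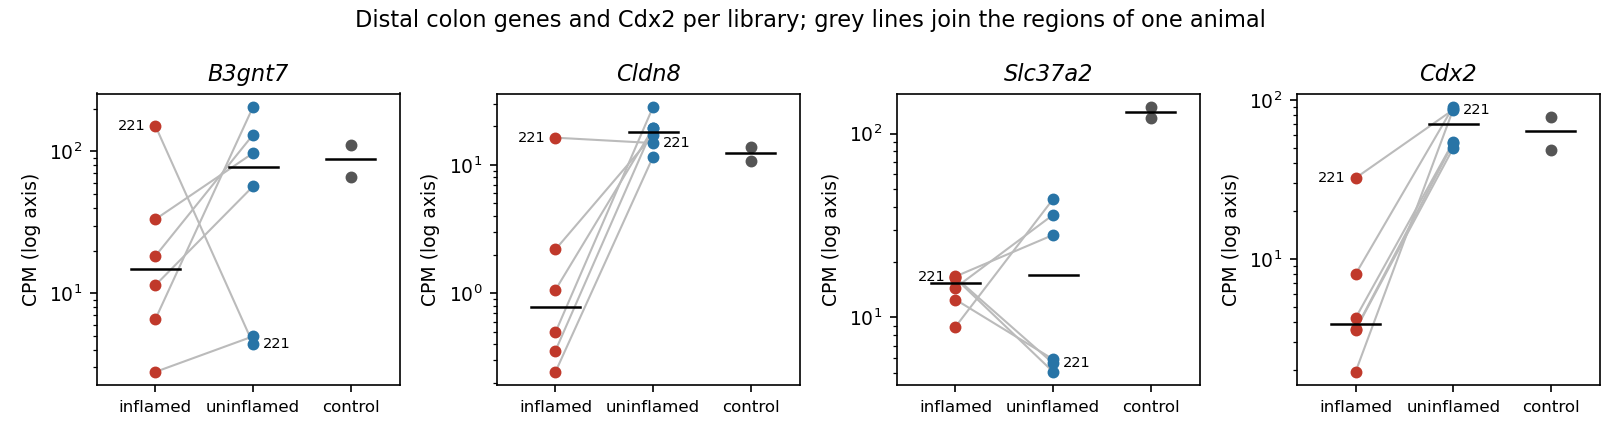
CPM (log axis) of 3 genes of the distal colon and of Cdx2 in inflamed, uninflamed and control libraries (points), with group medians as black bars and grey lines joining the 2 regions of one animal. Animal 221 is labelled, and B3gnt7 has its highest inflamed value (151 CPM) and lowest uninflamed value (4.4 CPM) there.

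Of the ParaHox genes and regional factors of the gut, 13 of 17 listed were tested. Among them Cdx1, Cdx2 and Hnf4a, epithelial transcription factors of the intestine, fell in I-UI and in I-C. Cdx2, which acts upstream of Hox genes in the mouse hindgut, had 1.94 to 32.2 CPM in inflamed, 49.7 to 90.5 CPM in uninflamed and 78.4 and 48.1 CPM in control tissue (I-UI log2 fold change -2.93 ± 0.59, edgeR adjusted p = 0.00282). Its highest inflamed value was that of animal 221, the other 5 having 1.94 to 7.99 CPM, and in the uninflamed library of that animal, where Hoxb13 was at 1.03 CPM, Cdx2 was at 86.7 CPM. The summed epithelial markers of the inflamed library of animal 221 were 3320 CPM, against 148 to 1030 CPM in the other 5 inflamed libraries, and those of its uninflamed library were 5340 CPM. The uninflamed group had 3110 to 6210 CPM of these epithelial markers, a range that takes in the inflamed library of animal 221. The summed neutrophil markers of animal 221 were 348 CPM in the inflamed library, the lowest of that group (348 to 2010 CPM). In its uninflamed library they were 15.7 CPM, within the group's 11.2 to 25.9 CPM. The part of the epithelial share in the Hox values of this animal was not tested.

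Partners and regulators of Hox proteins were looked at in the same fit. Of the 9 cofactors of the Pbx, Meis and Pknox families, which bind DNA beside Hox proteins, 0 were called by edgeR, DESeq2 or limma-voom in any comparison, beside 12.6%, 13.6% and 0.145% of all genes called in I-UI, I-C and UI-C, and 3 in I-UI, 2 in I-C and 0 in UI-C had an unadjusted p under 0.05. With library totals in place of TMM, Meis2 was called higher in I-UI, and Meis2, Pbx3 and Pknox2 in I-C, and with no minimum fold Meis2 and Pknox1 were called higher in I-UI. Without animal 221, Pbx4 was called lower in both I-UI and I-C. The smallest adjusted p values were those of Meis2 (I-UI log2 fold change 0.74 ± 0.22, edgeR adjusted p = 0.0213) and Pknox1 (0.48 ± 0.16, adjusted p = 0.0356), which passed the adjusted p and not the 2-fold change. Of 26 Polycomb, Trithorax and related chromatin regulators tested, Kdm6b, a demethylase of the Polycomb mark on histone H3, rose in I-UI (1.56 ± 0.3, edgeR adjusted p = 0.00167), and Ezh1, a Polycomb methyltransferase, fell in I-C (-1.02 ± 0.22, edgeR adjusted p = 0.00605). Of 13 genes of the retinoic acid pathway, which induces Hox genes in the embryo, Aldh1a1, an enzyme that makes retinoic acid, fell in I-UI (-1.27 ± 0.27, edgeR adjusted p = 0.00306) and in I-C. Of 16 genes that neighbour the clusters, Tax1bp1 on the side of cluster A fell in I-UI (-1.07 ± 0.19, edgeR adjusted p = 0.00108) and I-C, and Hnrnpa1 on the side of cluster C rose in I-C (1.08 ± 0.3, edgeR adjusted p = 0.0244). In UI-C, edgeR called 0 of the 13 regional factors, 3 distal colon genes, 16 neighbours, 26 chromatin regulators and 13 retinoic acid genes, with 1, 1, 1, 1 and 2 at an unadjusted p under 0.05, where 0.145% of all genes were called. DESeq2 called 1 distal colon gene and 1 retinoic acid gene there, and limma-voom 0 in each list.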

How the data were processed

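The counts are whole numbers of reads per gene that the authors deposited without normalization. Per the labels and the study's methods, the authors depleted ribosomal RNA before library preparation, sequenced 50-base reads on a SOLiD instrument, discarded shorter ones, removed reads on ribosomal RNA genes, and aligned to Rnor_5.0 with the Ensembl 77 annotation in CLC Genomics Workbench, so mature microRNAs are not measured. The sources used here do not say whether counting used strand, so reads of a gene and an overlapping antisense gene cannot be told apart. GEO's processing notes also name edgeR. In R 4.3.3, library totals with TMM factors, filterByExpr (minimum count 10, which kept 18678 genes), a robust quasi-likelihood fit over all 14 libraries with 1 term per group, a prior count of 2 and Benjamini-Hochberg adjustment were used (edgeR 4.0.16). DESeq2 1.42.0, limma-voom 3.58.1, edgeR's exactTest, other scalings and filters, an animal block and leaving out each animal were alternatives. The procedure was also run on simulated counts drawn without the pairing of regions by animal, and the outcome is not reported here.

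The members and the lists beside them were chosen with earlier results of these data known. Hox genes with a mean of at least 1 CPM, and those called, are described with values, and list members called in any comparison or otherwise the 2 of smallest adjusted p are named. Some list members that the rule would name are not reported here. Inflamed and uninflamed libraries are paired by animal in the labels. The correlation of the 2 regions' deviations from their group means was -0.12 to 0.199 per animal. The highest correlation of an inflamed library with another animal's uninflamed library was 0.0487 to 0.228. Only in animals 222 and 223 was the value of the own pair above it, so the pairing rests on the labels. No 2 libraries had identical counts. Only 2 control rats were sequenced, and p-values against them rest largely on the spread of the other groups.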

Additional observations from a re-analysis of the deposited data

Results flagged for a closer look

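In the inflamed group, 1 library stood apart in 2 Hox genes by Dixon's test, which was applied to the CPM of 10 Hox genes in 2 groups of 6. Its limit flags about 1 in 20 groups by chance only where values are normally distributed, so the rate may differ for CPM. The test was not repeated on a log2 scale, where the gaps would be smaller beside the range. The inflamed library of animal 221 had 61.9 CPM of Hoxb13, the next highest being 13.4 CPM (gap over range 0.8, limit 0.625). The same library had 3.07 CPM of Hoxb9, the next highest being 1.2 CPM (gap over range 0.706). The cause was not tested.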

How the results depend on the processing

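Of 654 recomputed log2 fold changes of 10 Hox genes in 3 comparisons, 585 kept their direction and call, 45 lost the call, 12 gained it and 12 changed sign, all 12 of these called in neither fit. In I-UI, Hoxd13 and Hoxd10 kept their calls under all 23 alternatives. The Hox genes called in I-UI numbered 7 with no filter on low counts (Hoxa9, Hoxc9 and Hoxd3 were added), and 2 to 5 when 1 animal was left out. With library totals 3 were called in I-UI, all higher (Hoxb3, Hoxd10 and Hoxd13). In I-C 1 was called with no filter or with only the 2 groups compared, and 0 to 3 without 1 animal. Library totals replaced both I-C calls: Hoxb3 (1.3) and Hoxd4 (1.16) were called higher. Hoxd13 and Hoxb9 stayed lower there, at -1.62 and -1.1, without being called. In UI-C 0 were called with library totals or with only the 2 groups compared, 1 with limma-voom, with an animal block in limma-voom or without the uninflamed library of animal 221 (chosen after seeing the data), and 0 to 2 without 1 animal.

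Over all genes, I-UI had 4556 genes with no minimum fold, beside 2356. I-C had 3812 with library totals, beside 2532, and 919 to 3017 without 1 animal or 1 library of animal 221. UI-C had 27, beside 0 with library totals or with only the 2 groups compared, 171 with exactTest, 151 with DESeq2, 6 with limma-voom or its animal block, 4 without the uninflamed library of animal 221 and 0 to 188 without 1 animal. Library totals without TMM moved the median of all genes to 0.27 (I-UI), 0.69 (I-C) and 0.41 (UI-C), with 70% and 87.7% of the calls higher in I-UI and I-C beside 46.6% and 43%. Against that shift, the I-C value of Hoxb7 was 0.39 and of Hoxb2 0.04, and the UI-C value of Hoxb9 was 0.01 and of Hoxb3 0.14.

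The other sign changes were small and all in UI-C. Hoxb4 gave -0.02 with limma-voom and with its animal block, -0.05 without replicate 217 and -0.1 without replicate 218. With 1 animal left out, Hoxd4 ran over -0.04 to 0.5 (lowest without 216), Hoxa3 over -0.14 to 0.43 (lowest without 222, and -0.13 without 217) and Hoxb3 over -0.7 to 0.25 (highest without 217). The animal block in edgeR removed the I-UI call of Hoxb9 (adjusted p 0.0819), and the block in limma-voom that of Hoxd10 in UI-C (-2.16, adjusted p 0.132), as limma-voom without the block did (adjusted p 0.128), and added that of Hoxb3 in I-UI (1.01). The blocks changed no other Hox call. Without Hoxb13 the median share of Hox reads on paralog groups 9 to 13 was 45.6% in uninflamed, beside 81.1%, and 83.6% in control libraries, beside 91.5%. The causes were not tested. The depth limits the 18 untested Hox genes, and 2-fold changes against 2 controls.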

Other observations

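Of the microRNA genes that lie within the Hox clusters, Mir10a, which is next to Hoxb4, was chosen for description after its values were seen. Its row had 149 reads (14 CPM) in the uninflamed library of animal 221. The inflamed libraries had 0 to 11 reads (0 to 0.751 CPM), the other 5 uninflamed libraries 6 to 17 reads (0.493 to 1.84 CPM) and controls 10 and 4 reads. The uninflamed library of animal 221 also held all 8 reads on Mir10b of cluster D, and it was the library with the lowest Hoxb13 and Hoxd13. Reads of 50 bases cannot come from the mature microRNA, and host or overlapping transcripts cannot be told apart from the precursor here. The mature sequences, from RefSeq (GRCr8) with bases 2 to 8, the seed position, in capitals, are shown because the rows were read together as paralogs. The entry of miR-10b starts 2 bases further into a nearly identical sequence. The capitals therefore mark shifted stretches, which differ through the annotated start and not through the bases.
rno-miR-10a-5p, chr10:81779730-81779752, plus strand: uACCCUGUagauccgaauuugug
rno-miR-10b-5p, chr3:80035886-80035907, plus strand: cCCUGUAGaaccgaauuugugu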
